A study of Mus musculus with 15 samples.

Results

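The 9 genes described here encode receptors and cyclic nucleotide signalling proteins of fat: the adrenergic receptors Adrb1, Adrb3, Adra1a and Adra2a, the natriuretic peptide receptors Npr1, Npr2 and Npr3, the phosphodiesterase Pde3b and the protein kinase A subunit Prkar2b. They were chosen by symbol, with earlier results of these data known, and each matched 1 of the 35794 Entrez IDs of the count table. Poly(A) RNA of perigonadal fat pads, which lie beside the gonads, was sequenced from C57BL/6 mice that were 14 weeks old. Weight loss mice ate a 60% high-fat diet for 5 weeks from 8 weeks of age and then chow for 1 week. Obese mice are listed with the same high-fat diet, the same start and 5 weeks, with no return to chow. Lean mice were fed chow. The labels give no sex and no genetic change. There were 4 weight loss, 5 obese and 5 lean libraries. A further library, weight loss replicate 5, held 1 count over all 9 genes, for Adrb3, and entered no comparison.

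Noradrenaline from sympathetic nerves acts on fat cells through adrenergic receptors. Beta receptors raise cyclic AMP, which activates protein kinase A and so lipolysis, alpha-2 receptors lower cyclic AMP, and alpha-1 receptors signal through calcium. Natriuretic peptides raise cyclic GMP through Npr1 and Npr2, while Npr3 has no cyclase domain and takes the peptides up for breakdown. Pde3b degrades cyclic AMP in fat cells under the control of insulin, and Prkar2b is the main regulatory subunit of protein kinase A in white fat.

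The labelled tissue was fat by its markers: 10 adipocyte markers, among them Adipoq, Plin1 and Lipe, were measured in every group, with summed levels of 23565 to 35973 CPM (CPM are counts scaled by library size) in weight loss, 20671 to 26463 CPM in obese and 24344 to 36272 CPM in lean libraries. Libraries totalled between 13924770 and 33807887 counts. The filter on low counts left 15208 genes to test, all 9 members among them. Markers of the epididymis, which the fat pad adjoins in males, were uneven: they summed to 8629, 6663 and 3945 CPM in obese replicates 2, 5 and 4 and to 3575 CPM in lean replicate 1, while no other library exceeded 551 CPM. The calls of the 9 members are therefore also given without these 4 libraries, which leaves obese replicates 1 and 3. For pathway genes between obese and lean fat, the calls kept without them are named together. In bulk tissue, fewer cells of a type and less RNA per cell cannot be told apart.

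High-fat feeding went with 3 changes among the 9 genes. Npr3 and Adra1a were higher and Adrb3 was lower in obese than in lean fat, by 2.71-fold, 2.11-fold and 1.82-fold. After the week back on chow Npr3 was 2.09-fold lower than in obese fat, the only 1 of the 9 to pass that comparison, and no member passed between weight loss and lean fat. The test was edgeR's quasi-likelihood test across all genes, and a gene was called at a Benjamini-Hochberg adjusted p under 0.05. Between obese and lean fat 3 of 9 members were called, against 9.71% of all genes tested, with 2 higher, against 5.86%, and 1 lower, against 3.85%. After weight loss 1 of 9 was called relative to obese fat, lower, against 1.62% of all genes in either direction, 0.881% lower and 0.736% higher. Relative to lean fat 0 of 9 were called, against 0.0329% of all genes. DESeq2's Wald test also called 0 of 9, against 1.72% of all genes. At an unadjusted p under 0.05, 5 members passed between obese and lean, against 24.8% of all genes, 2 between weight loss and obese, against 14.3%, and 0 between weight loss and lean, against 11.4%. The median log2 fold change of the 9 genes was -0.25 between obese and lean (all genes -0.02), 0.21 between weight loss and obese (all genes 0.02) and 0.15 between weight loss and lean (all genes 0). Comparisons that share a group are not independent of each other. Since the members were chosen with earlier results of these data known, their counts beside those of all genes are a description.

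**Figure D1:**
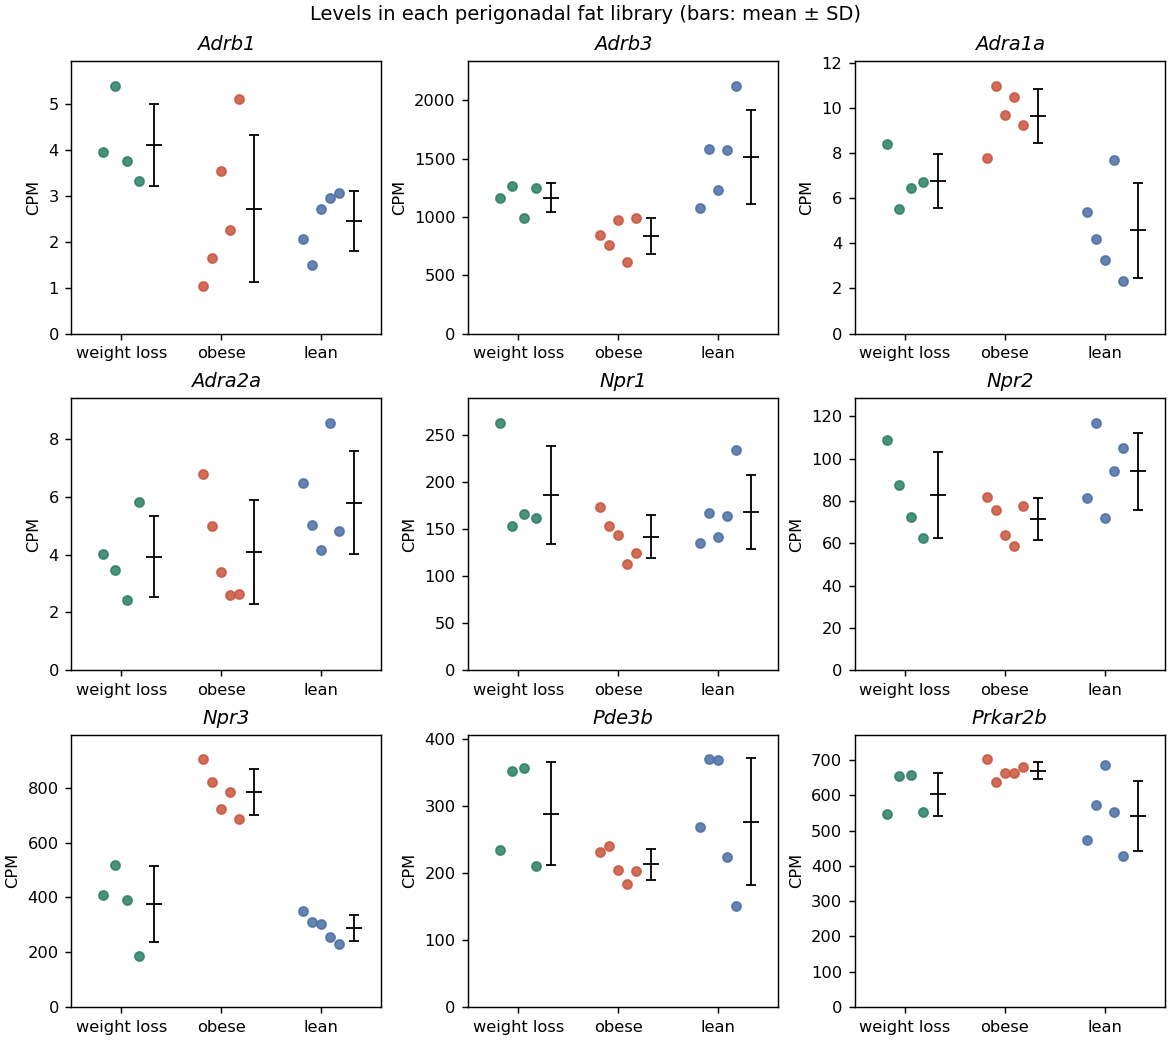
Level of each of the 9 genes in CPM (vertical axes, each from 0) in every weight loss, obese and lean library; points are libraries and bars are the mean ± SD. The obese libraries stand apart from the lean ones for Npr3 (685 CPM and above), Adra1a (7.79 CPM and above) and Adrb3 (987 CPM and below). For Adra1a the gap is narrow, with the highest lean library at 7.71 CPM.

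Adrb3, the beta-adrenergic receptor most characteristic of rodent fat cells, was the most abundant of the 9 genes for its length. Its gene (Entrez ID 11556, protein-coding) lies on chromosome 8 from 27225776 to 27230845 on the minus strand of GRCm38, the assembly that mm10 names. The 4 weight loss libraries held 1159, 1263, 993 and 1251 CPM. The 5 obese libraries held 847, 756, 973, 614 and 987 CPM. The 5 lean libraries held 1080, 1586, 1230.1, 1571 and 2125 CPM. Every obese library lay below every lean and every weight loss library, while weight loss and lean libraries overlapped. Adrb3 fell to 835 ± 156 CPM in obese fat, against 1518 ± 403 CPM in lean fat (SD, n = 5 each), a log2 change of -0.86 ± 0.18 (standard error, adjusted p = 0.00786). For weight loss against obese the log2 value was 0.48 ± 0.19 and did not pass (adjusted p = 0.242), nor did weight loss against lean, at -0.38 ± 0.19 (adjusted p = 0.459).

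Without the 4 libraries rich in epididymal transcripts the lower Adrb3 level in obese fat had a log2 value of -0.84 ± 0.22 that missed the threshold (adjusted p = 0.109). It passed in the other 28 of 29 alternatives, with adjusted p down to 6.39e-05. Several adipocyte markers were also lower in obese fat: Cfd, Slc2a4, Cebpa and Pparg. These were 4 of 10, against 3.85% of all genes, and none was higher, against 5.86%. Set against the summed counts of all 10 markers in the same library, Adrb3 stood at 3.48 to 4.82% in weight loss, 2.96 to 4.04% in obese and 4.37 to 6.09% in lean libraries. So scaled, obese and lean libraries did not overlap, the group means differed by 1.35-fold, and weight loss and obese libraries overlapped. The mean marker sum was 23033 CPM in obese and 30859 CPM in lean fat. Most of that difference was Cfd, at 3686 ± 800.2 CPM in obese and 10097 ± 2749 CPM in lean fat (SD, n = 5 each). The share without Cfd was not calculated.

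Adrb1, the beta receptor best known from the heart, was low, with 21 to 145 counts per library. It stood at 3.95, 5.39, 3.75 and 3.31 CPM in weight loss libraries, at 1.03, 1.65, 3.53, 2.25 and 5.11 CPM in obese libraries, and at 2.05, 1.49, 2.71, 2.95 and 3.05 CPM in lean libraries. The weight loss libraries all lay above the lean ones, and the obese libraries spanned nearly the whole range. The log2 value was 0.74 ± 0.40 for weight loss against lean (adjusted p = 0.505), 0.59 ± 0.40 for weight loss against obese (adjusted p = 0.561) and 0.15 ± 0.38 for obese against lean (adjusted p = 0.854). Adrb1 is on chromosome 19, from 56722117 to 56725150 on the plus strand.

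Adra1a, an alpha-1 receptor that couples to phospholipase C, was low in all groups but differed between obese and lean fat. It is on chromosome 14, from 66635251 to 66771240 on the plus strand. Weight loss libraries held 8.41, 5.54, 6.46 and 6.73 CPM, obese libraries 7.79, 11.0, 9.71, 10.5 and 9.28 CPM, and lean libraries 5.40, 4.19, 3.25, 7.71 and 2.34 CPM. The lowest obese library lay just above the highest lean library, and weight loss libraries overlapped with both groups. Adra1a rose to 9.66 ± 1.2 CPM in obese fat, against 4.58 ± 2.1 CPM in lean fat (SD, n = 5 each), a log2 change of 1.08 ± 0.27 (adjusted p = 0.0236). The call rests on 33 to 379 counts per library and lay near the threshold. It was lost without lean replicate 2 (adjusted p = 0.0519), obese replicate 2 (0.0571), obese replicate 3 (0.0521) or obese replicate 4 (0.0511), with the epididymal marker sum as a covariate (0.0673), and without the 4 epididymis-rich libraries (0.313), with log2 values between 0.84 and 1.06 in these settings. A stricter threshold of 0.01 also ended it. Over all 29 alternatives the adjusted p ran from 0.00174 to 0.313. For weight loss against obese the log2 value was -0.51 ± 0.29 (adjusted p = 0.462), and against lean it was 0.57 ± 0.29 (adjusted p = 0.472).

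Adra2a, an alpha-2 receptor that couples to the inhibitory G protein, did not pass in any comparison. It is on chromosome 19, from 54045259 to 54048982 on the plus strand. Its levels ran from 2.44 to 5.82 CPM with a median of 3.73 in weight loss, from 2.62 to 6.81 CPM with a median of 3.42 in obese, and from 4.16 to 8.58 CPM with a median of 5.04 in lean libraries, and all 3 groups overlapped. The log2 values were -0.50 ± 0.32 for obese against lean (adjusted p = 0.376), -0.06 ± 0.34 for weight loss against obese (adjusted p = 0.966) and -0.56 ± 0.35 for weight loss against lean (adjusted p = 0.56). The stimulatory and the inhibitory receptor were also compared within each library, where scaling has no part. There were 214 to 407 Adrb3 counts per Adra2a count in weight loss, 124 to 373 in obese and 167 to 441 in lean libraries, so this ratio overlapped between all groups.

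Npr3 showed the widest separation of the 9 genes between obese and lean libraries. It is on chromosome 15, from 11839896 to 11907837 on the minus strand. Weight loss libraries held 409, 518, 389.9 and 186 CPM. Obese libraries held 904, 819.5, 724, 785 and 685 CPM. Lean libraries held 349.5, 309.8, 301, 255 and 228 CPM. Every obese library lay above every library of the other groups, and the weight loss libraries spread widely, 3 of them above all lean libraries and replicate 4 below all lean libraries. Npr3 rose to 784 ± 85 CPM in obese fat, against 289 ± 48 CPM in lean fat (SD, n = 5 each), with an adjusted p of 0.000916, and it was called in all 29 alternatives, with log2 values of 1.37 to 1.58. It fell to 376 ± 139 CPM after weight loss (SD, n = 4), against 784 CPM in obese fat, with an adjusted p of 0.027. Between weight loss and lean fat the log2 value was 0.38 ± 0.22 and did not pass (adjusted p = 0.536).

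The lower Npr3 level after weight loss was called in 19 of 29 alternatives, with log2 values from -1.25 to -0.84 and adjusted p from 0.000163 to 0.385. It was not called without obese replicate 1 (0.0639), 2 (0.0579), 3 (0.0541) or 4 (0.0624), without weight loss replicate 1 (0.0545) or 3 (0.0767), or when only weight loss and obese libraries were fitted (0.0536). A threshold of 0.01 ended the call too. It was also not called with the epididymal marker sum as a covariate (0.166) or without the 4 epididymis-rich libraries (0.385), where the log2 values were -1.17 ± 0.29 and -1.12 ± 0.31. As a share of the summed counts of the 10 adipocyte markers, Npr3 stood at 0.517 to 1.98% in weight loss, 2.6 to 4.32% in obese and 0.654 to 1.44% in lean libraries. On this scale too every obese library lay above all libraries of the other groups. The marker sum itself was lower in obese fat (mean 23033 CPM, against 30859 CPM in lean fat), mostly through Cfd. A lower sum raises the Npr3 share, and this share too was not calculated without Cfd.

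Npr1, the receptor of atrial and B-type natriuretic peptide with its own guanylyl cyclase domain, did not pass in any comparison. It is on chromosome 3, from 90450591 to 90465928 on the minus strand. It stood at 263, 153, 166 and 162 CPM in weight loss, at 173, 153, 144, 113 and 125 CPM in obese, and at 135, 167, 142, 164 and 234 CPM in lean libraries. The 3 groups overlapped, and 1 library in each of the weight loss and lean groups stood well above the others of its group. The log2 values were -0.25 ± 0.18 for obese against lean (adjusted p = 0.442), 0.40 ± 0.19 for weight loss against obese (adjusted p = 0.373) and 0.15 ± 0.19 for weight loss against lean (adjusted p = 0.808). Npr2, the cyclase receptor of C-type natriuretic peptide, lies on chromosome 4 from 43629015 to 43651437 on the plus strand. It ran from 62.3 to 109 CPM in weight loss, from 58.6 to 81.8 CPM in obese and from 71.8 to 117 CPM in lean libraries. Its log2 value for obese against lean was -0.39 ± 0.17, with an unadjusted p of 0.0328 and an adjusted p of 0.157. For weight loss it was 0.21 ± 0.18 against obese (adjusted p = 0.667) and -0.18 ± 0.18 against lean (adjusted p = 0.725).

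The ratio of clearance to signalling receptor was taken within each library. It was not corrected for exon length, 9389 bases for Npr3 and 4783 for Npr1. Its size is therefore not a ratio of transcripts, and it serves to compare groups. Per kb of exon the lean means were 30.8 CPM for Npr3 and 35.2 CPM for Npr1. There were 1.56, 3.38, 2.34 and 1.15 Npr3 counts per Npr1 count in weight loss libraries, 5.24, 5.36, 5.04, 6.94 and 5.48 in obese libraries, and 2.59, 1.86, 2.13, 1.55 and 0.974 in lean libraries. The obese libraries all lay above the rest, and weight loss and lean libraries overlapped. The mean ratio was 5.61 ± 0.76 in obese fat, against 1.82 ± 0.61 in lean fat (SD, n = 5 each), which is 3.08-fold higher, and 2.11 ± 0.99 after weight loss (SD, n = 4). Since Npr3 was chosen with its rise known, the ratio is given as a description. Without the 4 libraries rich in epididymal transcripts the log2 of the obese over the lean mean ratio was 1.66, against 1.62 with them.

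**Figure D2:**
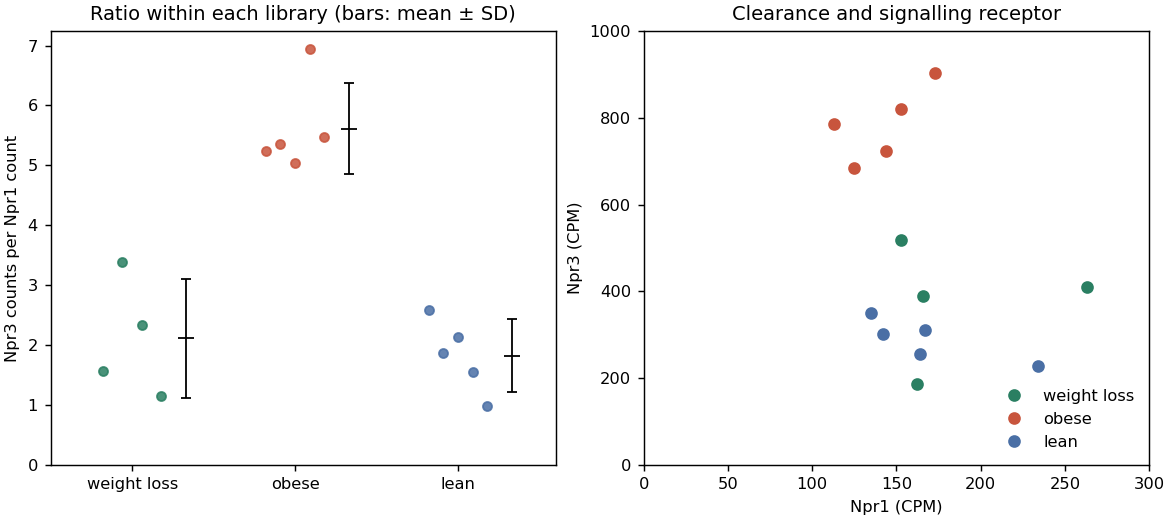
Left, Npr3 counts per Npr1 count in each weight loss, obese and lean library (points) with the mean ± SD (bars). Counts were not divided by exon length. Right, Npr3 against Npr1 in CPM, 1 point per library; obese libraries lie at 685 CPM or more of Npr3 while their Npr1 levels of 113 to 173 CPM overlap with those of the other groups.

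Pde3b and Prkar2b, which act on and under cyclic AMP, did not pass in any comparison. Pde3b, on chromosome 7 from 114415222 to 114537938 on the plus strand, held 235, 353, 357 and 211 CPM in weight loss libraries, 232, 241, 205, 184 and 204 CPM in obese libraries, and 269, 370.3, 369.8, 224 and 151 CPM in lean libraries. The obese libraries lay close together, within the wide range of the lean ones. Its log2 values were -0.38 ± 0.22 for obese against lean (adjusted p = 0.325), 0.44 ± 0.23 for weight loss against obese (adjusted p = 0.432) and 0.06 ± 0.24 for weight loss against lean (adjusted p = 0.946). Prkar2b, on chromosome 12 from 31958450 to 32061648 on the minus strand, held 547, 654, 657 and 554 CPM in weight loss libraries, 702, 637, 664, 663 and 679 CPM in obese libraries, and 473, 573, 685, 553 and 428 CPM in lean libraries. Here 4 of the 5 lean libraries lay below all obese ones, and lean replicate 3 stood among them. The log2 value for obese against lean was 0.30 ± 0.12 (adjusted p = 0.125). It passed in 2 of 29 alternatives, without lean replicate 3 (0.0322) and in limma-voom with sample quality weights (0.0492). For weight loss it was -0.15 ± 0.13 against obese (adjusted p = 0.669) and 0.15 ± 0.13 against lean (adjusted p = 0.675).

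**Figure D3:**
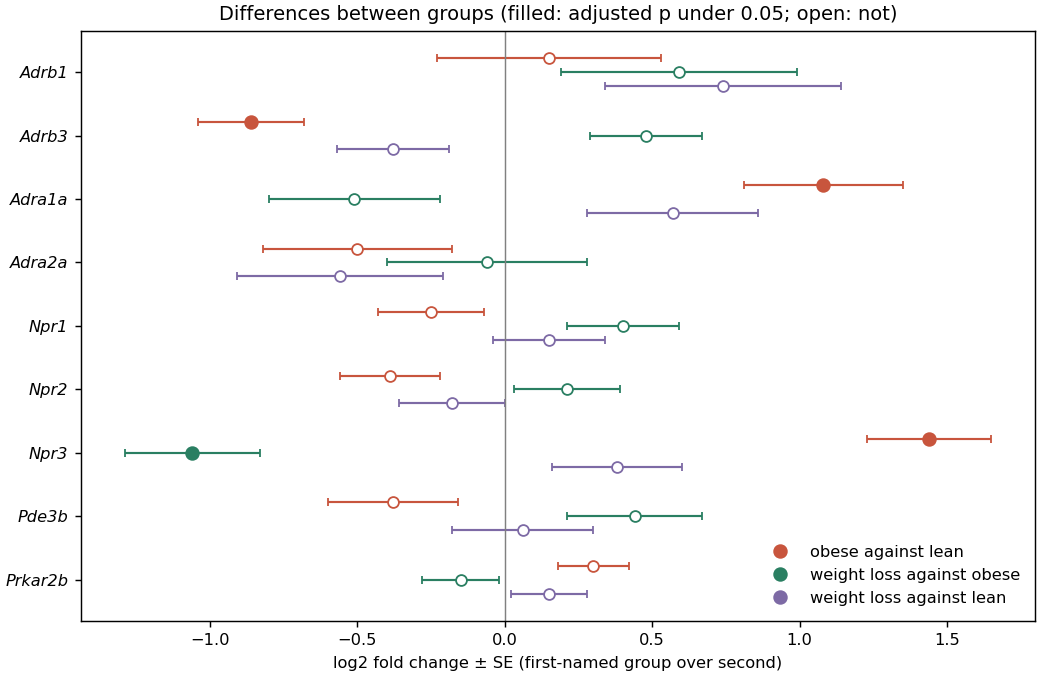
Log2 fold change ± standard error (horizontal axis) of each gene for obese against lean, weight loss against obese and weight loss against lean; filled points had an adjusted p under 0.05. The filled points are Npr3 (1.44), Adra1a (1.08) and Adrb3 (-0.86) for obese against lean and Npr3 (-1.06) for weight loss against obese.

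Groups were also compared by whether their libraries overlapped, and these member counts too are a description. Between obese and lean libraries 3 of 9 members did not overlap, against 10.3% of all genes: Npr3 and Adra1a were higher, against 6.04%, and Adrb3 was lower, against 4.31%. Between weight loss and obese libraries 2 of 9 did not overlap, against 6.65% of all genes: Adrb3 was higher, against 3.38%, and Npr3 was lower, against 3.27%. Between weight loss and lean libraries 1 of 9, Adrb1, did not overlap and was higher, against 2.29% of all genes in either direction, 1.58% higher and 0.704% lower.

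To compare levels between genes, CPM were divided by the length of the gene's merged exons in kilobases (GENCODE M21). On that scale the order in lean fat was Adrb3 (449.8 ± 119 CPM per kb), Prkar2b (149 ± 27), Npr1 (35.2 ± 8.2), Npr3 (30.8 ± 5.1), Pde3b (30.4 ± 10.4), Npr2 (20.1 ± 3.9), Adra2a (1.2 ± 0.36), Adrb1 (0.725 ± 0.20) and Adra1a (0.524 ± 0.24; SD, n = 5 for each). Npr1, Npr3 and Pde3b overlapped in their ranges, as did Pde3b and Npr2, and the 3 scarce adrenergic receptors overlapped in turn. Adrb3 and Prkar2b each stood clear of the next gene. In obese fat Npr3 reached 83.5 ± 9.1 CPM per kb, above Npr1 (29.6 ± 4.9), Pde3b (23.4 ± 2.5) and Npr2 (15.3 ± 2.1) in every library. Adrb3 ranged there from 182 to 292 CPM per kb and overlapped with Prkar2b, at 174 to 192. After weight loss Npr3 (40.0 ± 15), Npr1 (38.9 ± 11) and Pde3b (31.7 ± 8.4) overlapped again.

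**Figure D4:**
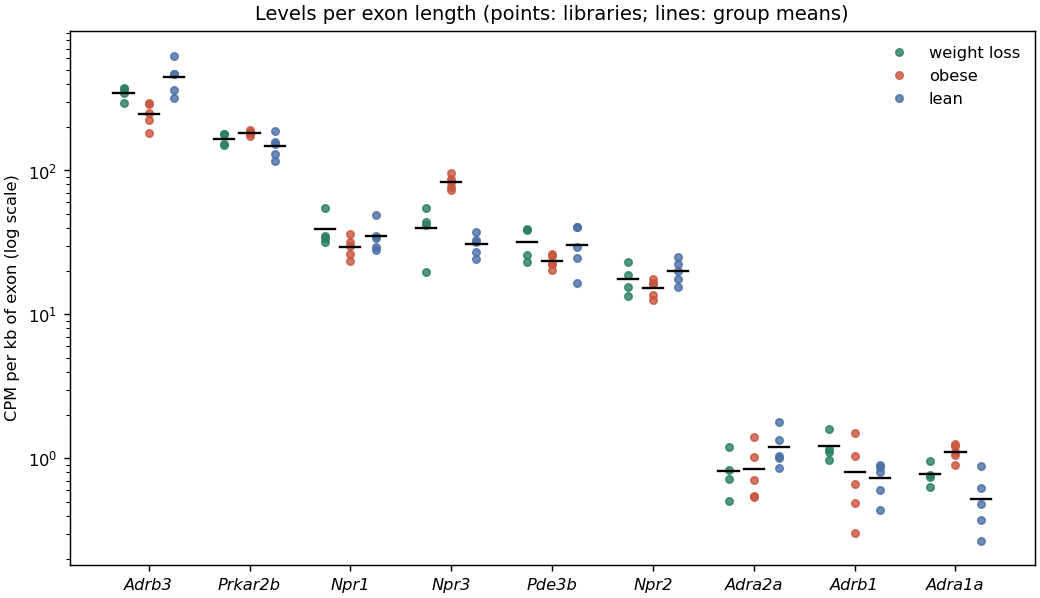
Level per kilobase of merged exon (vertical log axis, CPM per kb) for the 9 genes in order of their lean means; points are libraries, lines are group means. Adrb1, Adra1a and Adra2a lie near 1 CPM per kb and the others above 12 in every library.

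Some exons are shared with genes on the other strand, and whether the authors' counting used strand is not given. In GENCODE M21 antisense RNA genes span 40.4% of the exon bases of Npr2 (Gm12473), 24.9% of those of Adrb3 (Gm45470) and 20.5% of those of Npr1 (Gm16048), and Gm5144 spans 3.42% of those of Npr3. Reads from these pairs cannot be told apart here, and Gm5144 is listed with 0 counts.

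Within groups the members varied in different ways. After each group's mean was taken off, log2 CPM over the 14 libraries gave a Pearson r of 0.81 between Pde3b and Prkar2b, 0.70 between Npr1 and Npr2 and 0.61 between Npr3 and Pde3b, the highest of 36 pairs. The lowest were Adrb1 with Adra2a at -0.54 and Npr1 with Prkar2b at -0.46. These values are a description of libraries that share their depth and tissue makeup. By the same measure the genes most like Npr3 were Rsf1 (0.94), 6720489N17Rik (0.94) and Rad50 (0.91). Those most like Adrb3 were Npepl1 (0.90), 5031434O11Rik (0.88) and Map3k10 (0.88), and those most like Adra1a were Eya1, Kcnj2 and 1700073E17Rik (0.90 each). Rank correlations (Spearman) of Adra1a with Eya1, Kcnj2 and 1700073E17Rik were lower, at 0.68, 0.82 and 0.71. All these lists hold the highest values found over the tested genes, from 14 libraries. The list for Npr1 held Arhgef15 (0.98), Cbfa2t3 (0.95) and the G protein gene Gnai2 (0.95). For Npr2 it held Gipc3 (0.95), the arrestin gene Arrb1 (0.93) and Sh2d3c (0.92), and for Pde3b it included Zbtb41 (0.95) and Cd164 (0.95). Prkar2b was followed by Ptgr2 (0.94), Dld (0.93) and Chml (0.92), Adrb1 by Cela1 (0.87), Atg101 (0.86) and Camk1 (0.84), and Adra2a by Gm10406 (0.85), Zfp362 (0.83) and Mirlet7b (0.83).

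Beta and alpha-2 receptors act through cyclic AMP. The promoters were therefore searched for TGACG, the core of the cyclic AMP response element, on both strands (CGTCA). Npr1, Npr2 and Npr3 were searched too, though that reason does not cover them. RefSeq windows of 300 bases, 250 before and 50 after a transcript start on GRCm38.p6, were at hand for Npr1, Npr2, Npr3, Adra2a, Adrb1 and Prkar2b, 7 windows in all, and 3 of them held a match. Of all 32851 windows 20.8% held one. No window was at hand for Adrb3, Adra1a and Pde3b, so Npr3 was the only called member searched. The matches are shown to place them in genes that did and did not change. The match is in capitals, with 30 bases each, read along the gene's strand. A match is a string of letters and not a bound site.
Npr3: tggagcacacacTGACGcccagccaaatga
Adra2a: ccacgtgggggcTGACGccggctgctcggc
Adrb1: gctgcgggagccTGACGcgcggccccgggg
They lie at chr15:11907404-11907433, chr19:54045178-54045207 and chr19:56722015-56722044, with the match beginning 50, 69 and 90 bases before the transcript start of the window. For Adra2a and Adrb1 that start is the outer end of the gene as given above. For Npr3 it is base 11907371, which lies 466 bases inside the outermost RefSeq end, so the match falls within the gene's full span. Of the 3 genes, Npr3 was called and Adra2a and Adrb1 were not.

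Around the members, 14 lists of pathway genes held 124 genes, of which 113 passed the filter on low counts. These lists were drawn up with earlier results of these data known. Between obese and lean fat 9 were higher and 8 lower, 15% of those tested, against 9.71% of all genes. Between weight loss and obese fat 1 was higher and 2 lower, against 1.62% of all genes. Between weight loss and lean fat edgeR's test called 0, with 14 at an unadjusted p under 0.05, 12.4% of those tested, against 11.4% of all genes. DESeq2's Wald test called 2 there, Pde7a and Rgs4, 1.77% of those tested, against 1.72% of all genes. Without weight loss replicate 4 edgeR called 1, or 0.877%, against 0.843% of all genes. In the other comparisons DESeq2's Wald test kept all edgeR calls and made more. Between obese and lean fat it called 22, 19.5%, against 14.9% of all genes, adding Adcy5, Crtc2, Maoa, Pnpla2 and Ppargc1a. Between weight loss and obese fat it called 6, 5.31%, against 4.54% of all genes, adding Akap8, Mme and Npy1r. Genes described below as called or not refer to edgeR's test. The count for obese against lean was sensitive to single libraries. It was 6 without obese replicate 2 (5.31% of those tested, against 5.61% of all genes) or obese replicate 4 (5.36%, against 6.14%), and 7 without lean replicate 5 (6.25%, against 5.96%), shares near that of all genes. It was 8 without obese replicate 3 (7.08%, against 5.85%), 9 without obese replicate 1 (7.96%, against 6.77%) or lean replicate 4 (8.04%, against 6.81%), and 11 without lean replicate 2 (9.73%, against 6.89%). With the epididymal marker sum as a covariate 5 of the 17 were called, 4.42% of those tested, against 6.04% of all genes (among them Akap2, Pde7a, Ptger3 and Rgs4), and without the 4 epididymis-rich libraries 3 were called, 2.61%, against 0.811% of all genes (Hcar1, Pde7a and Ptger3).

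Of the 5 other adrenergic receptors none passed in any comparison. Of 7 tested receptors that, like Adra2a, couple to the inhibitory G protein in fat, 2 rose and 2 fell in obese against lean fat. Ptger3, a prostaglandin E receptor, rose to 102 ± 11 CPM in obese fat, against 38.6 ± 5.6 CPM in lean fat, a log2 change of 1.4 ± 0.14 with an adjusted p of 7.9e-05. It fell to 49.6 ± 9.4 CPM after weight loss, against 102 CPM in obese fat (log2 -1.04 ± 0.15, adjusted p = 0.00266). That second call was not made without the 4 epididymis-rich libraries (adjusted p = 0.0881), and it was made with the epididymal covariate (0.0425). Sucnr1, the succinate receptor, rose by a log2 value of 0.75 ± 0.21, while Hcar1, the lactate receptor, fell by 1.26 ± 0.28 to 71.9 ± 19 CPM in obese fat, against 172 ± 69 CPM in lean fat. Npy1r, a neuropeptide Y receptor, fell by 0.88 ± 0.19.

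Downstream of the receptors, none of 9 G protein subunits passed. Gnas, the stimulatory alpha subunit, stood at 1039 ± 104 CPM in weight loss, 1009 ± 93 CPM in obese and 1027 ± 69 CPM in lean fat. Of 9 adenylyl cyclases only Adcy7 was called in obese against lean fat, at 23.9 ± 7.6 CPM in obese and 11.4 ± 3.5 CPM in lean libraries (adjusted p = 0.033). Of 8 protein kinase A subunits and inhibitors, Pkia, an inhibitor of the kinase, rose by 0.83 ± 0.22, and no subunit passed. Among 11 anchoring proteins of the kinase, Akap2 rose by 0.76 ± 0.20 in obese against lean fat, and Akap8 fell by 0.52 ± 0.14. Akap1, which tethers the kinase to mitochondria, fell to 74.2 ± 4.4 CPM in obese fat, against 99.9 ± 10.1 CPM in lean fat (adjusted p = 0.0139). It rose to 110.4 ± 11 CPM after weight loss, against 74.2 CPM in obese fat (adjusted p = 0.01). Neither Akap1 change was called with the epididymal covariate (0.0594 between obese and lean, 0.262 between weight loss and obese) or without the 4 epididymis-rich libraries (0.224 between obese and lean, 0.388 between weight loss and obese).

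Of 17 other phosphodiesterases, 16 were tested. Pde7a, which is specific for cyclic AMP, rose to 41.4 ± 2.9 CPM in obese fat, against 17.0 ± 2.7 CPM in lean fat, a log2 change of 1.28 ± 0.13 with an adjusted p of 7.9e-05. It fell to 24.8 ± 3.8 CPM after weight loss, against 41.4 CPM in obese fat (log2 -0.74 ± 0.14, adjusted p = 0.0147). The change after weight loss was not called with the epididymal covariate (0.261) or without the 4 epididymis-rich libraries (0.516). Pde1a, which calcium and calmodulin activate, fell by 0.52 ± 0.15 in obese against lean fat. Of 12 receptor kinases, arrestins and RGS proteins, Rgs2, which limits signalling by Gq, fell by 1.1 ± 0.30 and Rgs4 rose by 0.69 ± 0.19. Neither cyclic GMP-dependent kinase passed, and none of the 4 further guanylyl cyclases tested did.

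Of 7 lipolysis effectors only Abhd5, the co-activator of adipose triglyceride lipase, was called, at 127 ± 22 CPM in obese and 205 ± 66 CPM in lean fat, a log2 change of -0.70 ± 0.20 with an adjusted p of 0.0387. Lipe, the hormone-sensitive lipase, stood at 2171 ± 439 CPM in obese and 2707 ± 542 CPM in lean fat (adjusted p = 0.236), and Pnpla2, the triglyceride lipase, at 1879.6 ± 371 CPM in obese and 2716 ± 725 CPM in lean fat (adjusted p = 0.0664). Of 11 tested genes of cyclic AMP-responsive transcription none passed edgeR's test. DESeq2's Wald test called Crtc2 and Ppargc1a lower in obese against lean fat (adjusted p = 0.0301 and 0.032). Ppargc1a, a co-activator induced by cold and adrenergic drive, stood at 4.78 ± 0.50 CPM in obese and 9.21 ± 3.7 CPM in lean fat (adjusted p = 0.0793). Of the catecholamine genes 8 of 10 were tested. Maob, a monoamine oxidase, fell by 0.69 ± 0.20 in obese against lean fat. Th and Dbh, enzymes of noradrenaline synthesis, summed to 23 and 13 counts over the 14 libraries.

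On the ligand side, Nppa, the atrial peptide gene, had 81 counts over the 14 libraries, Nppc 12, and Nppb and Ostn were listed at 0. Of the genes that process or degrade natriuretic peptides 4 were tested, and Mme, the neprilysin gene, was at 20.8 ± 3.5 CPM in obese and 12.1 ± 3.7 CPM in lean fat, a log2 change of 0.78 ± 0.23 with an adjusted p of 0.0455. After weight loss it was at 10.7 ± 3.3 CPM, a log2 value of -0.96 ± 0.25 against obese fat that did not pass (adjusted p = 0.0691).

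**Figure D5:**
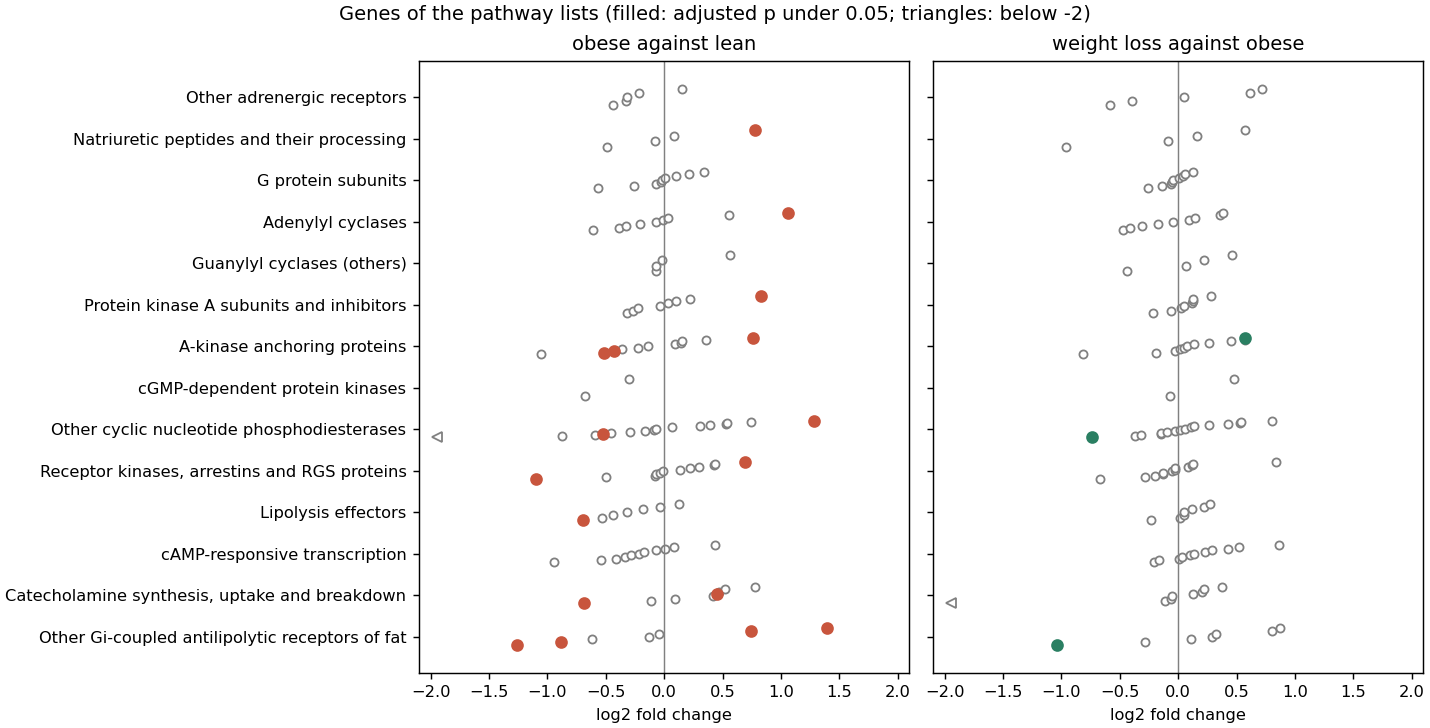
Log2 fold change (horizontal axes) of each tested gene of the 14 pathway lists for obese against lean (left) and weight loss against obese (right); filled points had an adjusted p under 0.05, and triangles mark values below the plotted range. On the left 9 filled points lie above and 8 below 0, and on the right 1 above and 2 below.

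Some markers of other cell types also differed between obese and lean fat, and their part in the results was not tested. Of all genes 5.86% were called higher and 3.85% lower in that comparison. Of 7 macrophage markers 6 rose in obese against lean fat, with summed levels of 455 to 1085 CPM in weight loss, 798 to 1216 CPM in obese and 339 to 757 CPM in lean libraries. Fibroblast and progenitor markers rose in 3 of 7 cases and summed to 1249 to 2186 CPM in weight loss, 1274 to 1888 CPM in obese and 802 to 1634 CPM in lean libraries. Endothelial markers had 1 of 7 lower and summed to 768 to 1576 CPM in weight loss, 952 to 1286 CPM in obese and 859 to 1257 CPM in lean libraries. Of 5 mesothelial markers 1 rose, with sums of 238 to 365 CPM in weight loss, 255 to 419 CPM in obese and 158 to 368 CPM in lean libraries. Of 6 Schwann and nerve markers 1 rose and 1 fell, with sums of 27.9 to 35.8 CPM in weight loss, 32.5 to 42.1 CPM in obese and 20.2 to 42.3 CPM in lean libraries. Of 17 tested epididymal markers 1 rose. None of 7 tested smooth muscle and pericyte markers passed, with sums of 530 to 1223 CPM in weight loss, 459 to 1313 CPM in obese and 325 to 3249 CPM in lean libraries, and Acta2 was listed at 0 in all 14 libraries.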

How the data were processed

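Poly(A) RNA was sequenced in 15 libraries. The authors deposited expected counts by Entrez ID without normalization (34.7% of values were not whole), on mm10 per the submitters' processing notes. Aligner, counting tool, strand setting and annotation: not given in the sources used here. Lines of 1 ID were summed and counts rounded. RefSeq named 32919 IDs and GENCODE M21 24. Libraries under 1000000 counts were left out. Of the 15 libraries 14 were kept, with 13924770 to 33807887 counts.

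Genes were filtered with filterByExpr by group, scaled by TMM and fitted with 1 coefficient per group in edgeR 4.0.16 (estimateDisp, glmQLFit, glmQLFTest, R 4.3.3), two-sided. Benjamini-Hochberg adjustment ran over 15208 genes at a threshold of 0.05. A standard error is |log2 fold change| divided by √F. CPM are counts over TMM-scaled library sizes. DESeq2 1.42.0 and limma 3.58.1 served as alternatives, and Python 3.11.15 for tables and plots.

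On simulated counts with 200 changed genes, the test found 37% of 2-fold and 7% of 1.5-fold changes between obese and lean (15027 genes), 34% and 3% between weight loss and obese (15038 genes), and 30% and 3% between weight loss and lean (15032 genes). The changed genes were drawn at random over all levels. In the data 1477, 246 and 5 genes were called in these comparisons. The adjusted threshold depends on how many genes change, so these shares need not hold for the members. The design text calls the samples independent, but names no animals, so p-values measure the spread between these samples.

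Named were all 9 members, up to 4 called genes of each pathway list per comparison by smallest p, and the 3 genes most like each member. A few genes under this rule are not reported here. Others, Gnas, Lipe, Pnpla2, Ppargc1a and genes under the filter, were chosen after their values were seen. Members, lists and the count minimum were chosen with earlier results of these data known.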

Additional observations from a re-analysis of the deposited data

Results flagged for a closer look

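In 2 of 33 groups of values screened, 1 library lay far from the others of its group by Dixon's criterion, and chance flags about 1 in 20 groups. Npr1 in weight loss replicate 1 was at 263 CPM, where the other weight loss libraries held 153 to 166 CPM. Without it the log2 value of Npr1 for weight loss against lean was -0.07, against 0.15 with it, and neither passed. In obese replicate 4 there were 6.94 Npr3 counts per Npr1 count, where the other obese libraries held 5.04 to 5.48.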

How the results depend on the processing

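Each member was refitted under 29 alternatives, 3 of them chosen after the data were seen. For obese against lean, 3 members were called, 2 to 4 when 1 library was left out, and 1 once the 4 epididymis-rich libraries were dropped. Of all genes 9.71% were called there, 5.61% to 11% with 1 library left out and 0.811% without those 4 libraries. For weight loss against obese, 1 was called, and 0 to 1 when 1 library was left out. The count was 0 when only the groups compared were fitted and at an adjusted p of 0.01. It was also 0 with the epididymal level as a covariate and without those 4 libraries. Of all genes 1.62% were called there, 0.914% to 1.76% with 1 library left out and 1.52% with only the groups compared. The share was 0.552% at 0.01, 0.243% with the covariate and 0.13% without those 4 libraries. For weight loss against lean, the count was 0 in every alternative run, other tools included. Of all genes 0.0329% were called there, 1.72% by DESeq2's Wald test and 0.843% without weight loss replicate 4. Of the members' values under alternatives 748 kept direction and side of the threshold, 18 lost a call, 2 gained one and 15 changed sign, all of them uncalled in both settings. Adrb1 for obese against lean was -0.02 in limma-voom, -0.15 with sample quality weights, -0.24 to 0.36 with 1 library left out (below 0 without obese replicate 5), -0.05 with the epididymal covariate and -0.16 without the 4 libraries. Adra2a for weight loss against obese ranged from -0.31 to 0.20 with 1 library left out (0.20, 0.02 and 0.11 without obese replicate 1, obese replicate 2 and weight loss replicate 3). Pde3b for weight loss against lean was -0.01 with the replicate block, -0.02 with the covariate, and -0.09 to 0.19 with 1 library left out (-0.05, -0.09, -0.05 and -0.06 without lean replicates 4 and 5 and weight loss replicates 2 and 3). Npr1 for weight loss against lean was -0.07 without weight loss replicate 1 and up to 0.29 with another library left out. The log2 of the weight loss over the lean mean ratio of Npr3 to Npr1 was 0.21, and -0.11 to 0.41 with 1 library left out (-0.11 without weight loss replicate 2). The cause of these shifts was not tested. The replicate number as a block left the counts of called members at 3, 1 and 0, against 10.6%, 1.13% and 0.0132% of all genes. Among the named pathway genes it ended the calls of Pde7a for weight loss against obese (adjusted p = 0.0505) and of Maob and Akap8 for obese against lean. Same-numbered libraries of different groups correlated at over 0.1 in 4 of 13 pairs, and 3 of 14 libraries correlated best with their own number, so the numbers are not taken as pairs. Adrb1, Adra1a and Adra2a rest on 21 to 379 counts per library, which limits what can be detected.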

Other observations

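Npy, the gene of neuropeptide Y, which sympathetic nerves release with noradrenaline, was at 106 CPM in obese replicate 4 and 60.4 CPM in lean replicate 1, and no higher than 0.938 CPM in the remaining 12 libraries. Both libraries were among the 4 richest in epididymal transcripts, with summed markers at 3945 and 3575 CPM, while obese replicates 2 and 5, at 8629 and 6663 CPM, held 0.754 and 0.353 CPM of Npy.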
